A study of Mus musculus with 83 samples.

Results

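Smooth muscle cells of the gut wall shorten when myosin filaments slide along actin filaments. Ca2+ entering the cell activates calmodulin and then the myosin light chain kinase, which phosphorylates the regulatory light chain and switches the myosin on. In the colon these cells form the circular and longitudinal layers of the muscularis externa and the thin muscularis mucosae, and related cells surround the blood vessels. The present account covers 10 genes of this contractile machinery, found as 10 of the 37764 gene rows of the colon count table. The genes were chosen by symbol for their role, with earlier results of these data known. They are *Acta2* and *Actg2* (smooth muscle alpha actin and enteric gamma actin), *Myh11* (smooth muscle myosin heavy chain), *Myl9* (regulatory light chain), *Mylk* (myosin light chain kinase), *Cnn1*, *Tagln* and *Smtn* (calponin 1, transgelin and smoothelin, which bind the actin filament), *Lmod1* (leiomodin 1, a nucleator of actin filaments) and *Des* (desmin, the intermediate filament of muscle).

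The libraries were made from polyA RNA of the proximal colon of 83 male C57BL/6J/Ukj mice, 1 mouse per library, with no treatment or engineered allele named in the labels. There were 16 mice of 3 months, 16 of 9 months, 16 of 15 months, 17 of 24 months and 18 of 28 months, so the labelled difference between groups was age. Libraries were prepared in 3 batches of 28, 29 and 26 mice, each batch holding mice of every age. The colon was rinsed, cut lengthwise and across and frozen, and the methods name no step that parts mucosa from muscle. In such bulk samples fewer muscle cells and less contractile RNA per muscle cell cannot be told apart.

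Depth was 23026370 to 75838290 counts on genes per library, and all 10 genes were far above the counting limit, the lowest value being 599 counts of *Lmod1* in 1 library. All 10 passed the filter on low counts, which left 18325 genes. None shares exon bases with another gene on its own strand, and no run of 100 bases of their transcripts occurs in a transcript of another gene. *Tagln*, *Des*, *Mylk* and *Smtn* share exon bases with genes of the opposite strand, which counting by strand keeps apart. Libraries were checked against markers of colon: 8 epithelial genes (*Epcam*, *Cdh1* and others) summed to between 21530 and 40186 CPM (counts scaled to a common library size), and none of the 16 marker lists used had a gene at 0 in all mice.

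Per unit of transcript length, the 10 genes spanned a wide range of levels, given here as TPM (counts divided by exon length and scaled to a common sum) over the 83 mice. *Myl9* had the highest median, 1213 TPM, and *Actg2* the next, 1184 TPM. These neighbours could not be ordered, as *Myl9* was the higher of the pair in 42 of 83 mice. *Tagln* followed at 1050 TPM and *Acta2* at 973 TPM, with *Actg2* above *Tagln* in 76 mice and *Tagln* above *Acta2* in 72. *Des* stood at 569 TPM, *Cnn1* at 432 and *Myh11* at 400, and *Cnn1* exceeded *Myh11* in 58 of 83 mice. *Mylk* (150 TPM), *Smtn* (111 TPM) and *Lmod1* (39.0 TPM) came below *Myh11* in this order in all 83 mice. The actins, the light chain and transgelin therefore ranked among the 106 most abundant transcripts of the table, whereas *Lmod1* ranked at 3995. Together the 10 genes took 0.118 to 0.700% of all counts of a library, with a median of 0.542%.

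The genes lie on 7 chromosomes (GRCm38): *Lmod1* at chr1:135324807-135368065 and *Des* at chr1:75360329-75368579, *Myl9* at chr2:156775420-156781658, *Actg2* at chr6:83512905-83536265, *Cnn1* at chr9:22099216-22109630 and *Tagln* at chr9:45929619-45936058, *Smtn* at chr11:3517523-3540612, *Myh11* at chr16:14194535-14291372 and *Mylk* at chr16:34745210-35002420, and *Acta2* at chr19:34241090-34255590. The transcription factor SRF, with its partner myocardin, drives many genes of this kind through a 10-letter element, the CArG box. Promoters of 7 of the 10 genes were found in the RefSeq table (GRCm38.p6, 250 bases before to 50 after the start). An exact CArG box was present in 1 of them, *Myl9*, with its first letter 161 bases before the start. Over all 32851 promoters of the same length, 1.63% held an exact box on either strand and 21.1% held one with at most 1 letter off. Elements 1 letter off were present in *Acta2* (84 and 34 bases before the start), *Myl9* (99 bases before) and *Lmod1* (189 and 164 bases before), and these 3 promoters are shown because they hold all the matches. The windows of *Cnn1*, *Des*, *Mylk* and *Smtn* held none, which concerns only these letters in these windows. Capitals mark the exact element and those 1 letter off, and each run is written 5′ to 3′ on the strand of the gene (*Acta2* at chr19:34255324-34255623, minus strand; *Myl9* at chr2:156775214-156775513, plus strand; *Lmod1* at chr1:135324563-135324862, plus strand).
Acta2 promoter: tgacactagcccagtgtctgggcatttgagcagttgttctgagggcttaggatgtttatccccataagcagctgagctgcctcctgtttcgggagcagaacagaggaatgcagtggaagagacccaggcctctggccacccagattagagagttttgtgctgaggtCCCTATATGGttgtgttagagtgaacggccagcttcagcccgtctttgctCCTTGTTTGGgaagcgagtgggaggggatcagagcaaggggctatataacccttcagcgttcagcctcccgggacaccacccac
Myl9 promoter: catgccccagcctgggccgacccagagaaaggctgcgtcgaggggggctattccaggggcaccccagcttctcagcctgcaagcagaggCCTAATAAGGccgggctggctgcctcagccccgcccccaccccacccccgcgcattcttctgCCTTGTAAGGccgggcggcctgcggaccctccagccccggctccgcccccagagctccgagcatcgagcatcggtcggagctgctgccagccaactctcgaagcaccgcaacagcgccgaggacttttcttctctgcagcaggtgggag
Lmod1 promoter: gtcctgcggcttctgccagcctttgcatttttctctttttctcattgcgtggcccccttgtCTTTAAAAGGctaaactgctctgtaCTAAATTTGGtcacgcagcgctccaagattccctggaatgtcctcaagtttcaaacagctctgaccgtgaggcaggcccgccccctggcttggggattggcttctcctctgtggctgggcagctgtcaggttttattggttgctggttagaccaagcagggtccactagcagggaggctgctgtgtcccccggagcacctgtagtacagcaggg

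The 10 genes rose and fell together from mouse to mouse. Across the 83 mice, the Pearson correlation of log2 CPM between 2 of the genes had a median of 0.952 over the 45 pairs, and the Spearman correlation a median of 0.855. Every pair reached the smallest p that 100000 permutations can give, 1e-05, which was also its Benjamini-Hochberg adjusted value over the 45 pairs for either coefficient. The tightest pair was *Cnn1* and *Des* (r = 0.990), and the loosest *Actg2* and *Lmod1* (r = 0.842). A correlation of 0.84 or more was held by 0.0175% of all pairs of the 18325 tested genes, whose median r was -0.00. Both genes of a pair share the library, its depth and the makeup of the piece.

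The covariation was present within batches and within ages. The median r was 0.941, 0.924 and 0.968 in the 3 library batches, and 0.955 on residuals after age and batch. Within ages it was 0.985 in the 3-month mice, 0.977 in the 9-month mice, 0.671 in the 15-month mice, 0.890 in the 24-month mice and 0.871 in the oldest. The 15-month mice were also the most alike in muscle level: the SD of the mean log2 CPM of the 10 genes was 0.132 there, against 0.782 and 0.584 in the younger ages (3 and 9 months) and 0.221 and 0.228 in the older ones (24 and 28 months). At 15 months the loosest pair, *Cnn1* and *Lmod1*, had r = 0.104. Leaving out, for each pair, the 2 mice farthest from the median of the first gene gave a median r of 0.930.

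A large part of this shared variation lay in 5 libraries. To place each library on a muscle scale without the 10 genes, the mean log2 CPM of 9 other smooth muscle genes was used (*Synm*, *Synpo2*, *Pdlim7*, *Csrp1*, *Kcnmb1*, *Jph2*, *Pgm5*, *Tpm2* and *Ppp1r12b*, called the non-member muscle score). It lay between 1.27 and 1.84 log2 units below the median of all mice in 5 libraries, namely 3-month mice 10, 12 and 16 and 9-month mice 4 and 6. The next lowest library lay 0.90 below the median. These 5 libraries came from all 3 batches (1 from batch 1, 1 from batch 2 and 3 from batch 3), and their depth, 31795468 to 46046256 counts, was within that of the rest.

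In these 5 libraries each of the 10 genes had its 5 lowest values among the 83 mice. *Cnn1* stood at 62.4 CPM in 3-month mouse 10, 96.8 in mouse 12 and 55.7 in mouse 16, and at 97.0 and 124 CPM in 9-month mice 4 and 6, against a median of 392 CPM. That is 14.2 to 31.7% of the median. *Actg2* and *Des* were reduced to a like degree, to between 14.8 and 35.8% and between 15.5 and 30.0% of their medians. *Mylk* was reduced least, to between 40.7 and 53.9%, followed by *Smtn* at 35.5 to 52.3%. *Acta2* kept 27.9 to 46.2%, *Lmod1* 34.0 to 43.1%, *Tagln* 22.4 to 41.0%, *Myl9* 22.4 to 38.4% and *Myh11* 21.7 to 43.5%.

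Markers of several other cells of the wall were low in the same libraries, and those of the epithelium were not. On the log2 scale, the 6 enteric neuron markers lay 0.63 to 1.49 below their median and the 5 enteric glia markers 0.71 to 1.27 below. The other 78 libraries reached 0.96 below for neurons and 0.60 below for glia. Only the neuron value of 9-month mouse 6 lay within these ranges. The 6 pericyte and vascular smooth muscle markers lay 0.65 to 1.01 below, outside the range of the other 78 libraries, which reached 0.47 below. The 3 markers of the interstitial cells of Cajal lay only 0.10 to 0.43 below, within the range of the other libraries (to 0.45 below). The 6 fibroblast markers lay 0.28 to 0.83 below, and only 3-month mouse 16 was outside the range of the others (to 0.67 below). The 3 markers of PDGFRA+ interstitial cells lay 0.21 to 0.65 below, the skeletal muscle list 0.48 to 0.67 below and the 4 adipocyte markers 0.90 to 4.01 below. The 4 mesothelial markers lay 0.81 to 2.00 below in 4 of the 5 libraries and at the median in 9-month mouse 6. Only 9-month mouse 4 was outside the range of the others for this list (to 1.63 below). Macrophage (0.05 to 0.44 below) and endothelial markers (0.00 to 0.20 below) lay within the range of the other libraries, and T cell and B and plasma cell markers lay below the median in 3 of the 5 libraries and above it in 2. The 2 distal colon markers that passed the filter lay 0.21 to 1.56 below in all 5 libraries, and the 4 cardiac muscle markers from 0.12 below to 0.18 above, both within the range of the other libraries. The 8 epithelial markers lay 0.07 to 0.21 above their median, within the range of the other libraries. The part of the dissection, of cell number and of RNA per cell in these values was not tested.

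**Figure D1:**
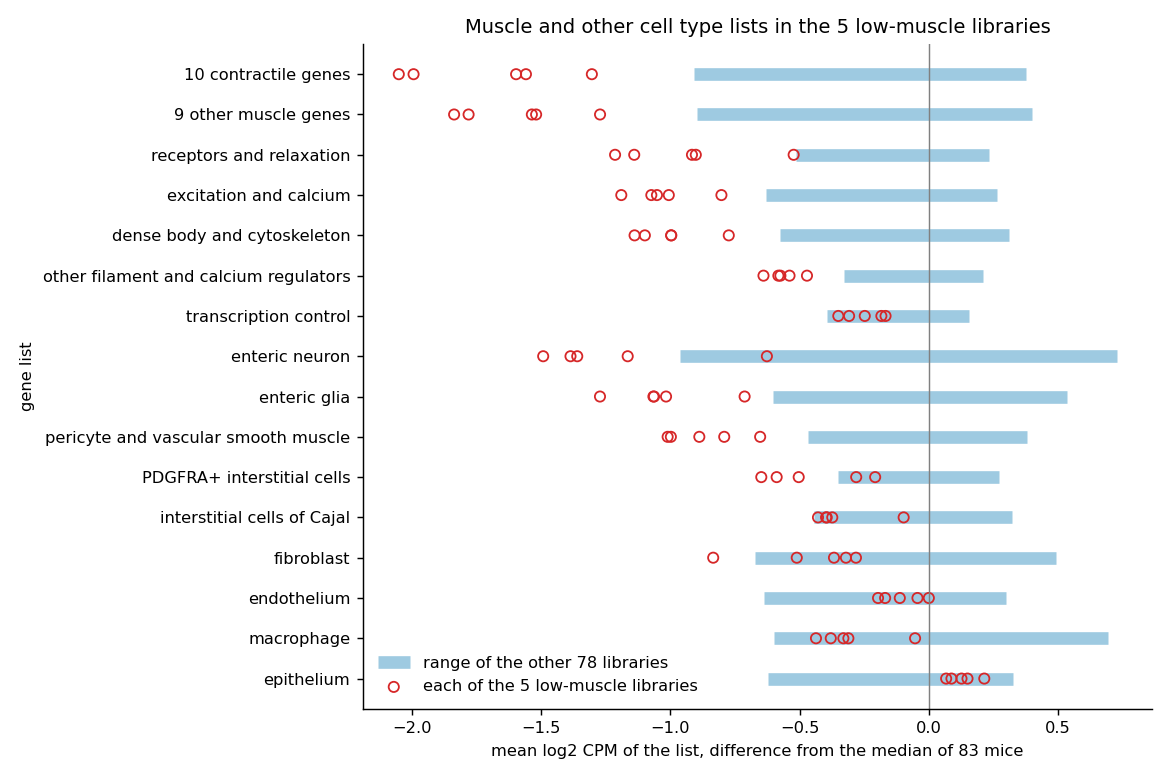
Mean log2 CPM of each gene list as its difference from the median of the 83 mice (x axis), with open red circles for each of the 5 low-muscle libraries and a blue bar for the range of the other 78. The 10 contractile genes lie 1.30 to 2.05 below the median in these libraries, neuron and glia markers are also low, and epithelial markers lie slightly above 0.

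Without these 5 libraries, a step chosen after seeing the data, the genes still moved together. The median r over the 45 pairs was 0.859, from 0.602 (*Actg2* and *Lmod1*) to 0.965 (*Cnn1* and *Des*). The first principal component held 85.6% of the variance of the 10 genes in the 78 mice, and 95.1% in all 83. The correlation of the mean of the 10 genes with the non-member muscle score was 0.993 over 83 mice and 0.976 over 78. Among marker lists it was highest for pericytes and vascular smooth muscle (0.853, and 0.628 without the 5), enteric glia (0.848 and 0.648) and enteric neurons (0.825 and 0.652), and it was -0.325 (-0.166) for the epithelium.

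**Figure D2:**
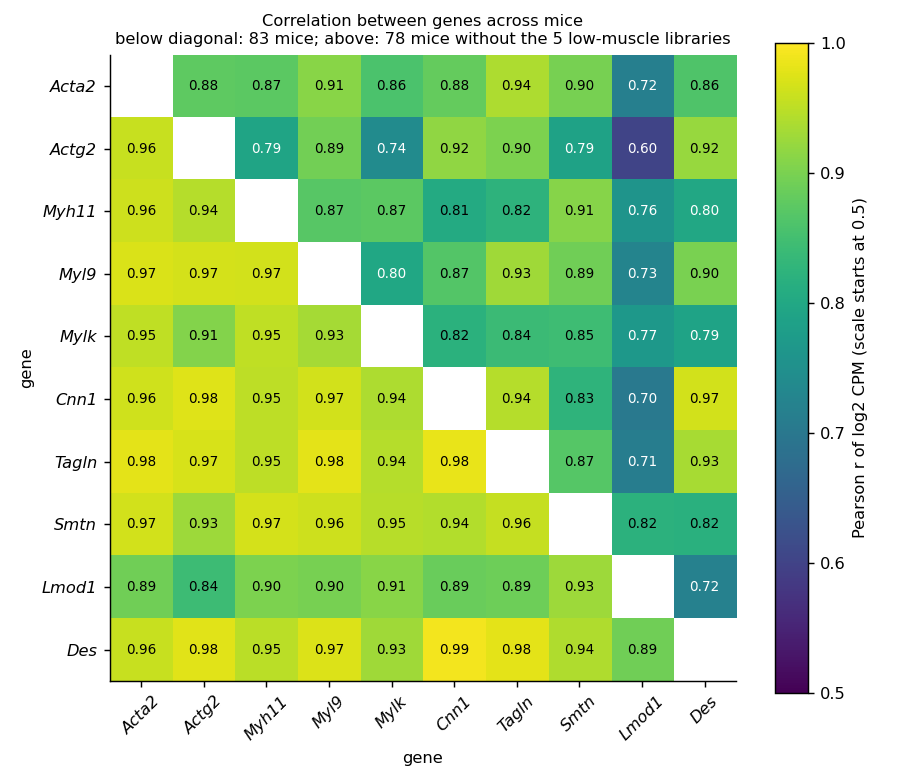
Pearson correlation of log2 CPM for each pair of the 10 genes, over all 83 mice below the diagonal and over the 78 mice left without the 5 low-muscle libraries above it; the color scale starts at 0.5. All 45 values lie at 0.842 or above with all mice and at 0.602 or above without the 5 libraries, and *Actg2* with *Lmod1* is the lowest pair on both sides.

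The genes did not follow the muscle score at the same rate. Regressed on the non-member muscle score over 83 mice, *Cnn1*, *Des* and *Actg2* changed by 1.38, 1.37 and 1.31 log2 units per unit of the score. *Tagln*, *Myh11*, *Myl9* and *Acta2* had slopes near 1, at 1.09, 1.07, 1.06 and 0.99. *Smtn*, *Lmod1* and *Mylk* had slopes of 0.83, 0.81 and 0.72. The separation between the first and the last group held in each batch, where *Cnn1*, *Des* and *Actg2* ranged from 1.14 to 1.45 and *Smtn*, *Lmod1* and *Mylk* from 0.70 to 0.91. It also held without the 5 libraries, where the slopes were 1.25, 1.25 and 1.21 for the first group and 0.87, 0.78 and 0.76 for the last. The slopes are a description of these libraries and were not tested against each other.

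**Figure D3:**
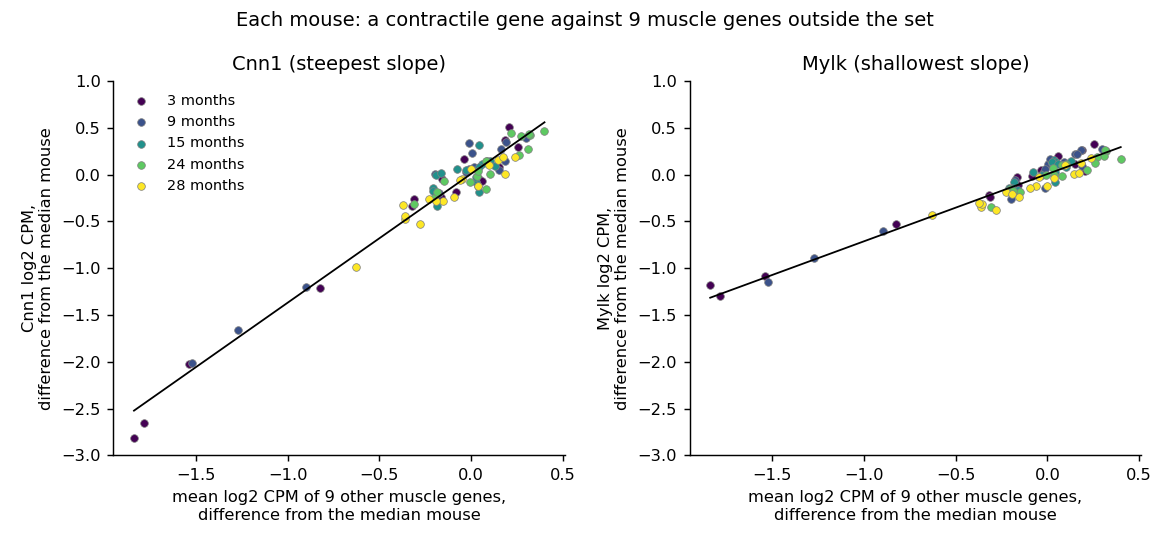
Log2 CPM of *Cnn1* (left) and *Mylk* (right) in each of the 83 mice against the mean log2 CPM of 9 other smooth muscle genes, both as differences from the median mouse, with points colored by age and the least-squares line. The slope is 1.38 for *Cnn1* and 0.72 for *Mylk*, and the lowest points are 3- and 9-month mice.

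Of the 10 genes outside the set that resembled it most, 5 stood on the lists of other muscle genes used here. Ranked by correlation with the mean of the 10 over 83 mice, the 10 highest of 18315 were *Tpm2* (r = 0.988), *Rbpms2* (0.978), *Pdlim3* (0.976), *Csrp1* (0.976), *Dmpk* (0.974), *Synm* (0.972), *Ckm* (0.970), *Tpm1* (0.968), *Popdc2* (0.967) and *Pgm5* (0.966). *Tpm2* and *Tpm1* encode tropomyosins, which run along the actin filament, and *Synm* encodes synemin, a partner of desmin. In the 78 other mice *Tpm2* was again the highest (0.959) and *Tpm1* the second (0.946). *Ckm*, the muscle creatine kinase, stood also on the list of skeletal muscle markers, of which 4 of 6 passed the filter, and the summed level of that list ranged from 10.3 to 57.3 CPM over all mice. In all, 95 genes had r of 0.9 or more and 356 of 0.8 or more. Negative correlations were weaker: the lowest were *Tom1l1* (-0.636), *Erlin2* (-0.632) and *Coa5* (-0.584), and 42 genes were at or below -0.5.

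The comparison of ages asked whether the contractile genes change over the adult life of the mouse and into old age. Levels are given in CPM as the range and the median of an age. *Actg2* ran from 91.9 to 814 CPM (median 503) in the 3-month mice, from 194 to 896 (638) in the 9-month mice, from 449 to 730 (585) in the 15-month mice, from 415 to 886 (693) in the 24-month mice and from 354 to 797 (582) in the 28-month mice. *Acta2* ran from 194 to 891 CPM (median 619) in the 3-month mice, from 244 to 907 (726) in the 9-month mice, from 537 to 814 (687) in the 15-month mice, from 517 to 898 (742) in the 24-month mice and from 461 to 816 (633) in the 28-month mice. All 5 ages overlapped for both actins, the lowest values belonged to 3- and 9-month mice, and the highest median of either gene was that of the 24-month mice.

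The intermediate filament gene *Des* had its highest median at 24 months and calponin (*Cnn1*) at 9 months. *Des* ran from 108 to 941 CPM (median 624) in the 3-month mice, from 189 to 998 (752) in the 9-month mice, from 632 to 862 (699) in the 15-month mice, from 578 to 1024 (762) in the 24-month mice and from 413 to 871 (649) in the 28-month mice. *Cnn1* ran from 55.7 to 559 CPM (median 360) in the 3-month mice, from 97.0 to 516 (412) in the 9-month mice, from 312 to 488 (394) in the 15-month mice, from 316 to 544 (404) in the 24-month mice and from 198 to 446 (347) in the 28-month mice. For both, no mouse of 15, 24 or 28 months was as low as the lowest of 3 and 9 months, and all 5 ages overlapped.

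From lowest to highest mouse *Myl9* spanned 6.08-fold and *Mylk* 3.09-fold, against 9.49-fold for *Des* and 10.02-fold for *Cnn1*. *Myl9* ran from 103 to 563 CPM (median 386) in the 3-month mice, from 154 to 627 (462) in the 9-month mice, from 383 to 538 (462) in the 15-month mice, from 332 to 589 (474) in the 24-month mice and from 356 to 534 (460) in the 28-month mice. *Mylk* ran from 227 to 703 CPM (median 551) in the 3-month mice, from 251.5 to 674 (590) in the 9-month mice, from 497 to 624 (568) in the 15-month mice, from 441 to 672 (586) in the 24-month mice and from 415 to 632 (509) in the 28-month mice. *Myh11* had medians between 908 CPM (3 months) and 1041 CPM (24 months). The ages overlapped throughout, and *Mylk* had its lowest median at 28 months. *Tagln* (medians 583 to 728 CPM), *Smtn* (153 to 171) and *Lmod1* (48.1 to 52.4) likewise had overlapping ages.

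**Figure D4:**
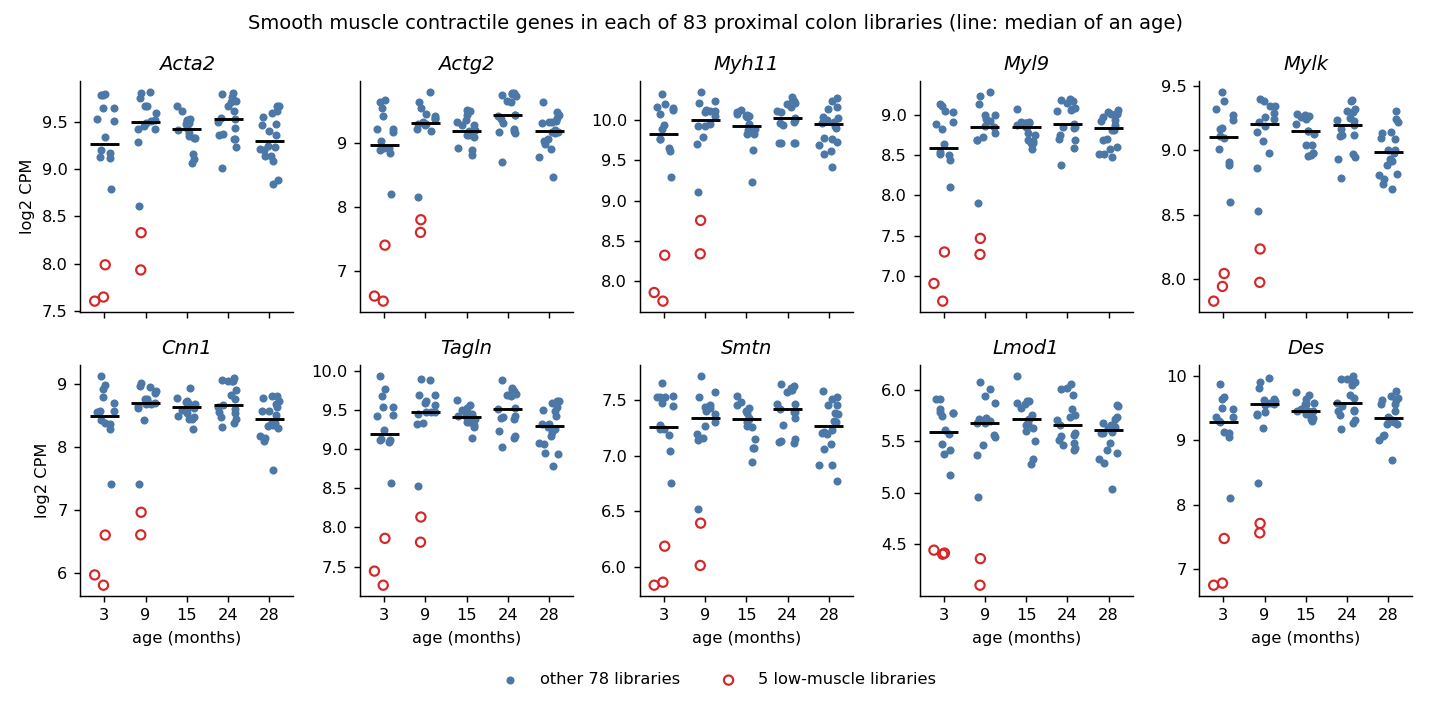
Log2 CPM of each of the 10 genes in each of 83 mice by age in months, with a line at the median of an age and open red circles for the 5 low-muscle libraries. The medians of the 5 ages lie close together, and the open circles, all at 3 and 9 months, lie below every other mouse.

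At 24 against 3 months, 5 of the 10 genes rose: *Des*, *Actg2*, *Cnn1*, *Myl9* and *Tagln*. The background of this comparison was high, with 34.5% of the 18325 tested genes called at an adjusted p below 0.1 (quasi-likelihood test of edgeR, Benjamini-Hochberg adjusted) and 16.7% called higher. *Des* was higher by 0.54 ± 0.18 (log2, SE; adjusted p = 0.0159), a 1.46-fold difference, with 15 of 17 old mice above the 3-month median. *Actg2* was higher by 0.54 ± 0.17 (adjusted p = 0.015, 16 of 17 mice) and *Cnn1* by 0.41 ± 0.18 (adjusted p = 0.0828, 13 of 17 mice). *Myl9* was higher by 0.37 ± 0.14 (adjusted p = 0.0445) and *Tagln* by 0.34 ± 0.15 (adjusted p = 0.0755). The other 5 had log2 differences of 0.20 to 0.31 with adjusted p from 0.106 to 0.158. The median over the 10 was 0.33, against -0.01 over all tested genes. At equal non-member muscle score, a covariate described further on, 8 of the 10 estimates were below 0, those of *Cnn1* (-0.03), *Myl9* (-0.01) and *Tagln* (-0.05) among them. *Des* was then called higher (0.11 ± 0.05, adjusted p = 0.0819). *Mylk* (-0.10 ± 0.03, adjusted p = 0.00462) and *Smtn* (-0.08 ± 0.03, adjusted p = 0.0856) were called lower, and *Actg2* was at 0.12 ± 0.06 (adjusted p = 0.15). The backgrounds above are those of the fit without the covariate. None is given for the covariate fit at 24 against 3 months, so its calls cannot be weighed against all genes.

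These calls rested partly on the 5 low-muscle libraries, 3 of which are 3-month mice. Without them 2 of the 10 genes were called at 24 against 3 months (background 21.7%, 11.6% higher): *Des* (0.31 ± 0.11, adjusted p = 0.0409) and *Actg2* (0.30 ± 0.11, adjusted p = 0.0498). The median over the 10 fell from 0.33 to 0.11. The difference was also uneven over batches, at 0.67, 0.26 and 0.79 for *Des* and 0.65, 0.23 and 0.84 for *Actg2* in batches 1, 2 and 3, and none of the 10 was called in a fit to 1 batch alone. Markers of other cells moved in the same comparison: 4 of 6 pericyte and vascular smooth muscle markers rose (summed level 165 to 486 CPM at 3 months and 364 to 570 CPM at 24 months), 4 of 4 mesothelial markers rose (1.29 to 5.94 and 1.27 to 12.4 CPM), 5 of 6 macrophage markers rose (132 to 205 and 159 to 272 CPM), 4 of 5 endothelial markers rose (89.6 to 107 and 97.1 to 126 CPM) and 4 of 8 epithelial markers fell (29607 to 38112 and 29755 to 35254 CPM). When the 5 libraries were left out these counts were 2 of 6 for pericytes, 2 of 4 for mesothelium, 4 of 6 for macrophages, 4 of 5 for endothelium and 1 of 8 for epithelium, in the same directions, and 2 of 6 enteric neuron markers were called lower. Of the striated muscle lists, whose tissues also express *Des*, 3 of 4 skeletal muscle markers rose (summed level 10.3 to 30.3 CPM at 3 months and 22.0 to 57.3 CPM at 24 months; 2 of 4 when the 5 were left out), while 1 of 4 cardiac muscle markers rose and 2 fell (6.07 to 13.2 and 6.30 to 9.69 CPM; the same counts when the 5 were left out). Rises were also called for 2 of 6 fibroblast, 1 of 3 Cajal cell and 2 of 5 B and plasma cell markers (1, 1 and 2 when the 5 were left out), and none of the PDGFRA+ cell, glia, T cell, adipocyte and distal colon markers was called by edgeR in either fit, where 1 glia and 1 adipocyte marker had an unadjusted p below 0.05. The part of these cells in the result was not tested.

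At 28 against 3 months none of the 10 genes was called, although 49.4% of all tested genes were. The log2 differences were 0.03 to 0.28 with a median of 0.12, none had an unadjusted p below 0.05 in edgeR, and DESeq2 called none. The tightest estimate, *Mylk* (0.03 ± 0.10), and the loosest, *Cnn1* (0.12 ± 0.18), both leave room for a change of either sign. When the 5 libraries were left out, the median over the 10 was -0.07 and none was called (background 43.4%, 0 of 10 with an unadjusted p below 0.05). A straight-line change with age was called for 3 genes, all higher, a share close to the 25.8% of all tested genes called higher (background 53.2%). They were *Des* by 0.32, *Actg2* by 0.32 and *Myl9* by 0.27 log2 units over 25 months (adjusted p = 0.0817, 0.0746 and 0.0656). None of these 3 was called without the 5 libraries (background 48.6%). Any difference among the 5 ages was called for *Des* and *Actg2* (background 54.9%; adjusted p = 0.092 and 0.0964), and departure from a straight line for none (background 16.2%, no gene with an unadjusted p below 0.05, none by DESeq2).

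The remaining 8 pairs of ages gave no call among the 10 genes, by edgeR or by DESeq2. The backgrounds were 8.69% at 9 against 3 months, 7.75% at 15 against 3, 0.431% at 15 against 9, 15.5% at 24 against 9, 40.0% at 28 against 9, 13.5% at 24 against 15, 42.4% at 28 against 15 and 11.7% at 28 against 24. The only unadjusted p below 0.05 among these in edgeR was that of *Des* at 15 against 3 months. At 28 against 24 months all 10 genes had lower estimates, from -0.29 (*Cnn1*) to -0.11 (*Myl9*). Without the 5 libraries, which include no mouse of either age, 4 of the 10 were called lower there (background 6.18% lower): *Cnn1* by 0.28 ± 0.10, *Actg2* by 0.26 ± 0.10, *Des* by 0.25 ± 0.10 and *Mylk* by 0.16 ± 0.06 (adjusted p = 0.0637, 0.0925, 0.0952 and 0.084). Also without them, *Cnn1*, *Mylk* and *Tagln* were called lower at 28 against 9 months (background 19.0% lower) and *Actg2* higher at 24 against 15 months (background 7.69% higher). At equal non-member muscle score, the covariate described next, the direction at 28 against 24 months turned: 7 of the 10 estimates were above 0, with a median of 0.01. *Myl9* (0.11 ± 0.04) and *Myh11* (0.10 ± 0.04) were called higher (adjusted p = 0.0479 and 0.0906). For the covariate fit at these ages no background is given, so the calls cannot be weighed against all genes. With the score and without the 5 libraries 6 of 10 were above 0 and none was called, 2 having an unadjusted p below 0.05.

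To ask how each gene changed with age relative to other muscle genes, the fit was repeated with the non-member muscle score as a covariate. At 28 against 3 months 5 of the 10 genes were then called, a share close to the 48.8% of all tested genes. *Des* (0.12 ± 0.04, adjusted p = 0.0234), *Myl9* (0.10 ± 0.04, adjusted p = 0.0217) and *Actg2* (0.12 ± 0.06, adjusted p = 0.081) were higher at equal muscle score. *Mylk* (-0.12 ± 0.02, adjusted p = 6.57e-05) and *Smtn* (-0.07 ± 0.03, adjusted p = 0.0741) were lower. The differences are small, at most 0.12 log2 units in either direction. With the 5 libraries left out, *Des*, *Myl9* and *Mylk* were called in the same directions (0.11, 0.10 and -0.10), and *Actg2* and *Smtn* were not. In the same model 3 genes fell along a straight line in age, a share close to the 27.2% of all tested genes called lower (background 51.2%). These were *Mylk* by 0.13, *Acta2* by 0.09 and *Tagln* by 0.09 log2 units over 25 months.

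**Figure D5:**
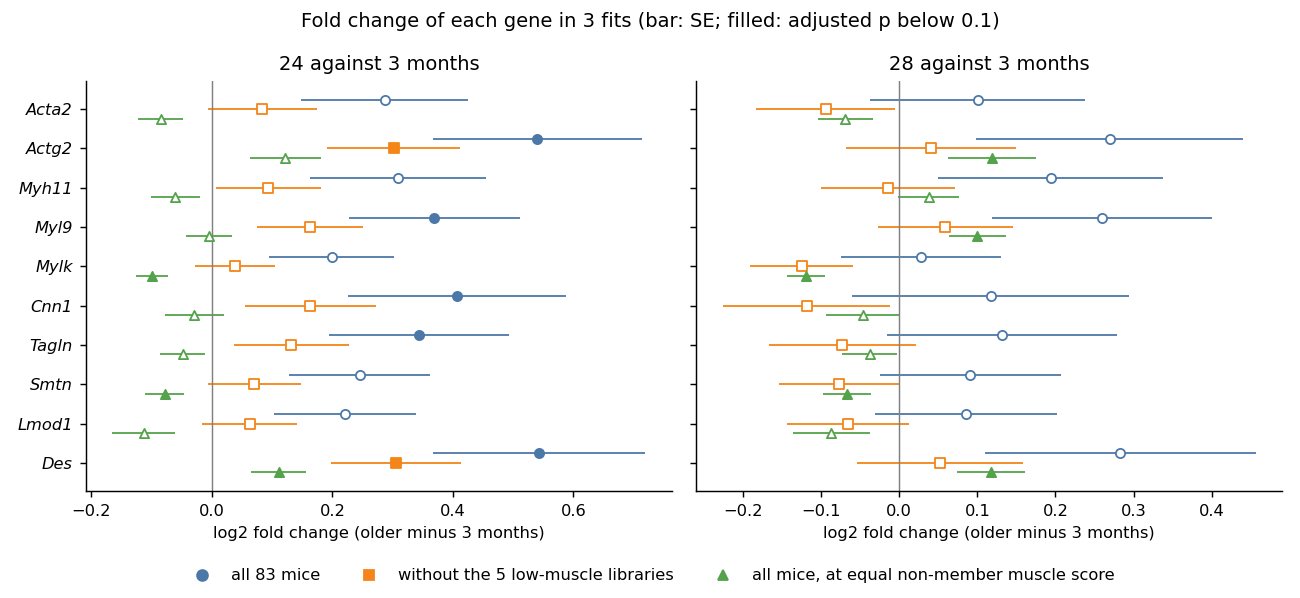
Log2 fold change of each gene at 24 against 3 months (left) and 28 against 3 months (right), with bars of 1 SE, in the fit to all 83 mice, in the fit without the 5 low-muscle libraries and in the fit at equal non-member muscle score; filled symbols have an adjusted p below 0.1. At 24 months the estimates shrink from a median of 0.33 to 0.11 when the 5 libraries are left out, and at equal muscle score *Des* lies above 0 and *Mylk* below 0 at both ages.

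Ratios compare 2 genes of the set within the same library. Of the 4 ratios computed, the kinase over its substrate, *Mylk* to *Myl9*, changed most, from a mean log2 CPM ratio of 0.49 ± 0.29 (SD, n = 16) at 3 months to 0.18 ± 0.09 (SD, n = 18) at 28 months. The difference of -0.31 had an adjusted p of 8e-05 (2-sided permutation test of ages within batches, 100000 permutations, Benjamini-Hochberg over 4 ratios), none of the 18 old mice was above the 3-month median, and the batches gave -0.23, -0.22 and -0.50. The means at 9, 15 and 24 months lay in between, at 0.36, 0.33 and 0.25. Enteric gamma actin gained on alpha actin: the *Actg2* to *Acta2* ratio rose from -0.41 ± 0.29 to -0.15 ± 0.18, by 0.26 (adjusted p = 0.00272, permutation test; 16 of 18 old mice above the 3-month median; 0.26, 0.12 and 0.42 by batch). Its mean was -0.22 at 9 months, -0.20 at 15 months and -0.07 at 24 months.

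*Des* to *Myh11* rose by 0.15, with an adjusted permutation p of 0.0565 and 12 of 18 old mice above the 3-month median. *Cnn1* to *Tagln* differed by 0.07 (adjusted permutation p = 0.34, 9 of 18 mice). Without the 5 libraries *Mylk* to *Myl9* (-0.20, adjusted permutation p = 0.00036) and *Actg2* to *Acta2* (0.15, adjusted permutation p = 0.0399) kept their call and direction, while *Des* to *Myh11* (0.08, adjusted permutation p = 0.297) lost its call. In each ratio 1 gene had a steeper slope on the non-member muscle score than the other, and the ratios were not adjusted for that score.

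Genes that work with the contractile filaments moved in part with them. At 24 against 3 months, where 34.5% of all tested genes were called and 16.7% called higher, 14 of 15 dense body and cytoskeleton genes rose and none fell, with a median of 0.34; *Vcl* (vinculin) was the one not called. Among regulators of the filament, 4 of 12 rose and 1 fell. Of the genes for excitation and Ca2+ handling, 5 of 12 rose and 1 fell, and of receptors and relaxation genes, 6 of 10 rose. Of 10 genes for transcription control, 2 rose and 1 fell. The 9 genes of the non-member score, 5 of which stand on the dense body list, had 8 rises with a median of 0.35. Without the 5 libraries these counts were 5 of 15 in the dense body list, 0 of 12 filament regulators, 1 of 12 excitation genes, 2 of 10 receptors and relaxation genes, 1 of 10 transcription genes and 1 of 9 score genes, all of them higher, against 11.6% of all genes called higher.

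At 28 against 3 months fewer genes were called in 4 of these 5 lists, the exception being transcription control, against a background of 49.4%. In the dense body list 5 of 15 rose, the largest being *Itga8* (integrin alpha 8; 0.56 ± 0.12, adjusted p = 0.00014) and *Vim* (vimentin; 0.33 ± 0.08). Of the excitation genes 3 of 12 rose and 1 fell: *Casq2* (calsequestrin 2, a Ca2+ store protein) was higher by 0.63 ± 0.09, *Cacna1c* (the L-type Ca2+ channel) by 0.29 ± 0.12, and *Atp2a2* (the Ca2+ pump of the sarcoplasmic reticulum) lower by 0.16 ± 0.05. Of the receptors and relaxation genes 4 of 10 rose, led by *Chrm2* (muscarinic receptor M2; 0.37 ± 0.16) and *Gucy1a1* (a subunit of the nitric oxide receptor guanylate cyclase; 0.34 ± 0.09). Of the filament regulators 2 of 12 fell, *Tagln2* (-0.21 ± 0.06) and *Rhoa* (-0.08 ± 0.03). Of the transcription genes 3 of 10 rose, with *Klf4* (0.25 ± 0.05) and *Foxf1* (0.15 ± 0.06) ahead, and *Srf* itself was lower by 0.10 ± 0.04 (adjusted p = 0.0758). Without the 5 libraries (background 43.4%) *Chrm2*, *Cacna1c*, *Foxf1* and *Rhoa* were no longer called (adjusted p = 0.282, 0.33, 0.312 and 0.137). The lists then had 3 rises and 1 fall for the dense body, 2 and 3 for excitation, 1 and 0 for receptors, 0 and 2 for filament regulators and 2 and 2 for transcription. At 28 against 3 months the background is not given by direction for either fit. Of the 6 pericyte and vascular smooth muscle markers 5 rose at this age, with *Notch3* highest among them (0.59 ± 0.08), and 1 of 6 did so when the 5 libraries were left out. Also at this age 4 of 4 mesothelial markers rose (by 1.05 to 1.47; 4 of 4 when the 5 were left out), as did 4 of 5 endothelial (4 of 5) and 5 of 6 macrophage markers (4 of 6), while 4 of 8 epithelial markers fell (3 of 8). Of the 6 enteric neuron markers 1 fell, and all 6 did when the 5 were left out, by 0.24 to 0.49. The part of these cells in the values of the lists above was not tested. How much vessel wall contributes to *Acta2*, *Myh11*, *Tagln* and *Myl9* in these libraries was not tested.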

How the data were processed

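Total RNA of the proximal colon of 83 mice was sequenced after polyA selection (stranded, paired-end), 1 library per mouse. Per the labels and methods, the authors trimmed reads with cutadapt 2.8, aligned them to GRCm38 with HISAT2 2.1.0, kept uniquely mapped reads with SAMtools 1.9 and counted them by strand over Ensembl genes with featureCounts (Subread 2.0.1). The deposited values are raw counts per gene, which the authors had not normalised. Unique mapping can lower counts of genes with near copies, which was checked for the 10 genes.

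Symbols and lengths were taken from GENCODE vM21. Counts were normalised by TMM and fitted with edgeR 4.0.16 (quasi-likelihood, R 4.3.3), with age and library batch as terms over all mice, after the filter on low counts (18325 genes). SE is the fold change divided by the root of F. Calls have a Benjamini-Hochberg adjusted p below 0.1 over all tested genes. CPM use TMM library sizes, log2 CPM a prior count of 2, and TPM the merged exon length. Correlations and ratios were tested with 100000 permutations. Depth of 23026370 counts or more per library makes counting error small beside the spread between mice.

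The members and gene lists were chosen with earlier results of these data known. Genes named outside the 10 are, from each list, at most the 2 largest rises and falls among genes called at 28 against 3 months, and the 10 highest and 3 lowest correlations. A gene a count of 5 or fewer is about may also be named. The non-member muscle score used 9 genes, and the 5 low-muscle libraries are those more than 1 log2 unit below its median, left out only as an alternative. Other alternatives were DESeq2 1.42.0, other normalisations, no filter, no batch term, single batches, the 2 ages alone and the replicate number as a block. Simulated data with known changes were used to test the fit at 28 against 3 months over 18228 genes: 83 of 99 changes of 0.5 log2 units and 98 of 99 of 1 were recovered, and 15 of 196 calls were unchanged genes. Recovery at the spread of the 10 genes was not tested separately. Their residual SD after age and batch ran from 0.320 (*Mylk*) to 0.596 (*Cnn1*) log2 units, against a median of 0.197 over all tested genes. No 2 libraries of an age agreed within sampling noise (lowest chi-square per degree of freedom 11.5 over 649 pairs).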

Additional observations from a re-analysis of the deposited data

How the results depend on the processing

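The fit to all mice called 5 of the 10 genes at 24 against 3 months, 2 for any difference among ages and 3 for a straight line. At an adjusted p below 0.05 these counts were 3, 0 and 0, without a filter on low counts 3, 0 and 0, and in each of library batches 1, 2 and 3 alone 0, 0 and 0, where fewer mice enter the fit. Without a batch term the count for any difference was 0. With only the 2 ages compared, 2 genes were called at 24 against 3 months, 1 at 24 against 15, 1 at 28 against 15 and 4 at 28 against 24. Shares of all tested genes called under these alternatives are not given, so the counts cannot be weighed against them. The cause of these shifts was not tested.

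Without the 5 low-muscle libraries, left out after seeing the data, the counts were 2 at 24 against 3 months, 3 at 28 against 9, 1 at 24 against 15, 4 at 28 against 24, 0 for a straight line and 1 (*Actg2*) for departure from it. The median correlation between the genes was then 0.859. The *Cnn1* to *Tagln* ratio turned from 0.0681 to -0.0431, neither of which was called, and *Des* to *Myh11* fell to 0.0841 (adjusted permutation p = 0.297). With all mice kept, the 5 libraries included, the median correlation within single ages was 0.985 at 3 months, 0.977 at 9, 0.671 at 15, 0.890 at 24 and 0.871 at 28.

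With the non-member muscle score as covariate the quantity becomes the change relative to other muscle genes. Calls and directions then differ from those of the fit without it. Among the counts that follow, the share of all tested genes called is given only for 28 against 3 months with all mice (48.8%). The other counts, and all those without the 5 libraries, cannot be weighed against such a share. The counts were 2 at 9 against 3 months (both higher), 1 at 15 against 3 (higher), 3 at 24 against 3 (1 higher, 2 lower), 5 at 28 against 3 (3 higher, 2 lower), 3 at 24 against 9 and 4 at 28 against 9 (all lower), 1 at 24 against 15 and 1 at 28 against 15 (both lower), 2 at 28 against 24 (both higher), 7 for any difference and 1 for departure from a line. At 24 against 3 months 8 genes then had negative estimates, *Acta2* -0.0851, *Myh11* -0.0604, *Cnn1* -0.0288, *Tagln* -0.0482, *Myl9* -0.00537, *Mylk* -0.0989, *Lmod1* -0.113 and *Smtn* -0.0786. With the score and without the 5 libraries, the counts were 1, 1, 2, 3, 3, 4, 1 and 2 for the first 8 of these comparisons in the same order, of which 1, 1, 1, 2, 0, 0, 0 and 1 were higher, 0 at 28 against 24 and 5 for any difference, and *Acta2* (-0.0787), *Myh11* (-0.0586), *Cnn1* (-0.0242), *Tagln* (-0.0393), *Mylk* (-0.0874), *Lmod1* (-0.0715) and *Smtn* (-0.0711) were negative at 24 against 3 months.

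The replicate block, the number in the labels as a factor, called 9 genes at 24 against 3 months and moved no other count of calls past 1.5 times. With this block the share of all tested genes called is not given, so the 9 calls cannot be weighed against it. The numbers share no stated litter or day: over 161 pairs of mice with the same number and different ages, deviations correlated with a median of 0.02, 31 pairs were over 0.1, and 3 of 83 mice correlated best with their own number. Over the results that answer a comparison, 162 values under an alternative stayed on their side of the threshold, within the spread or, for counts, within 1.5 times, 22 lost and 26 gained calls, 5 values without a test moved by more than the spread and 1 turned in sign.

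Depth did not limit these genes, whose lowest count in a library was 599 (*Lmod1*). The design gives 1 piece of colon per mouse, so spread between pieces of 1 mouse and spread between mice cannot be told apart. All values are relative to the whole library, so a change in other cells shifts them, and no muscle layer was measured alone.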
